A study of Mus musculus with 7 samples.

Results

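Cells sorted for green fluorescence from E8.5 mouse embryos are compared here with the cells of the same stage that did not fluoresce. Both populations came from embryos of strain C57BL6J with an Osr1-GFP knock-in, in which green fluorescent protein (GFP) is made where Osr1 is active. The labels give the embryo as tissue, total RNA as molecule, and a FACS Aria II sort. The first population is GFP-positive and the second GFP-negative. The labels give no treatment and no other gate for either. They make 2 of the 7 arrays of the series, 1 array for each population, and were chosen by those labels alone. For a second view, the same genes are given at E9.5, where other GFP-positive cells (those outside the Itga8-positive, Pdgfra-negative gate) and GFP-negative cells were sorted from the caudal part of embryos with the same knock-in. The number of copies of the knock-in allele, of embryos and of sorts is not given in the labels. With 1 array on each side no test can be made, so every difference below is a description of 2 arrays with an unknown spread between embryos.

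Osr1 is a zinc finger transcription factor that is switched on early in the intermediate and lateral plate mesoderm, the embryonic layers that give rise to kidney, gonad, body wall, limb bud and part of the heart. At this stage the mouse embryo also holds the first wave of red cells, which form in the yolk sac from mesoderm and enter the embryo when the circulation starts. These primitive red cells make embryonic globins under Gata1 and Klf1. Neural plate, somites, tail bud, surface ectoderm and endoderm are the other large tissues that such a dissection can hold.

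Levels are given on a log2 scale on which 0 is the 75th percentile of an array's signals and 1 unit is a 2-fold step. A difference is the GFP-positive level minus the GFP-negative level. Of 27113 genes named on the array, 18058 had a difference. A gene that was well above background on 1 array alone was given a bound. On the dim side the higher of the gene's own level and the lowest well-above level of that array was used, the lowest being -5.10 for GFP-positive and -3.46 for GFP-negative cells, and such a fold is written as "at least". The GFP-positive array had 70.3% of its spots well above background and the GFP-negative array 56.2%, with 6014 and 12590 spots at a surrogate value set by the software. A low gene could therefore be followed further down on the GFP-positive array than on the GFP-negative one, and 1717 genes had a bound on the GFP-negative side against 339 on the GFP-positive side. Both arrays lay on the same slide, no spot was saturated, and the Pearson correlation across all probes was 0.958 (probes are not independent replicates).

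In GFP-positive cells 179 genes (0.991% of those with a difference) were at least 4-fold higher than in GFP-negative cells, and 489 genes (2.71%) were at least 4-fold lower, together 3.7%. Of these, 72 of the higher and 239 of the lower genes rest on a bound. At 2-fold the sides were more even, with 1413 genes (7.82%) higher and 1222 genes (6.77%) lower. These 2-fold shares of all genes apply beside each E8.5 list count below, and a list count near them is no result about that list. The median difference over all 18058 genes was 0.05. When the median level of 16 housekeeping genes was set equal on both arrays, that median moved to 0.58, and the split turned round to 607 higher and 284 lower genes. When the median difference of the same housekeeping genes was set to 0, the counts were 133 higher and 533 lower. The lower side reached much further, to differences of about 10 log2 units, while no gene measured above background on both arrays exceeded 3.77 on the higher side.

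**Figure D1:**
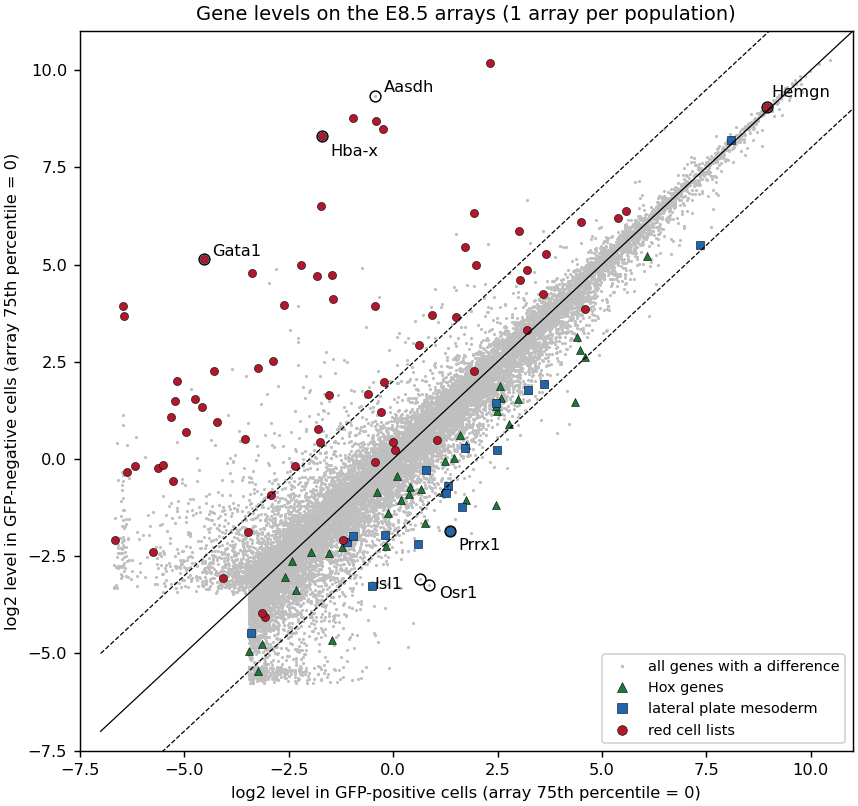
Log2 level of each gene with a difference in GFP-positive cells (x axis) and GFP-negative cells (y axis) of E8.5, where 0 is the 75th percentile of the array. The solid line marks equal levels and the dashed lines a 4-fold difference. Most red cell genes lie far above the diagonal, lateral plate and Hox genes lie mostly below it, and circles mark genes named in the text.

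Osr1, the gene of the sort, was on the side that its labels give. It stood at a level of 0.85 in GFP-positive cells, with a signal of 457, and at -3.23 in GFP-negative cells, with a signal of 24.6 that was not well above background. Osr1 was at least 16.9-fold higher in GFP-positive cells. Its single probe lies on chromosome 12 at 9587390 to 9587449 of mm9, plus strand, and its first 30 bases are shown because they carry the check of the sort.
Osr1 probe: tcacaagtgaaggagctcaaaacctccaag
The paralog Osr2, which acts later in kidney and palate, was not well above background on either array, at -4.94 and -5.25.

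Genes of the primitive red cell lay on the GFP-negative side. Over 5 red cell lists with 69 genes that had a difference, 55 were at least 2-fold lower in GFP-positive cells and 0 were higher, where 6.77% of all genes were lower. The median difference of the 69 was -3.19, and 48 were past 4-fold. In 18 of them the GFP-positive side was not above background. RNA of sorted cells is a mixture, so fewer red cells and less red cell RNA per cell cannot be told apart, and the number of red cells in either sort was not given. Globin probes made up 0.0023% of the total signal on the GFP-positive array and 0.872% on the GFP-negative array.

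Among erythroid transcription factors, 9 of 12 were at least 2-fold lower in GFP-positive cells, with a list median of -2.26. Gata1, the X-linked factor without which red cell precursors die, was at -4.53 in GFP-positive cells and 5.13 in GFP-negative cells, at least 813-fold lower. The next 3 factors were not above background in GFP-positive cells either. Klf1, which switches on the adult beta globins and many membrane genes, was at -4.28 in GFP-positive cells and 2.26 in GFP-negative cells, at least 93.0-fold lower. Nfe2, the p45 subunit that binds globin control regions, was at least 137-fold lower, with levels of -5.18 and 1.997. Gfi1b, a repressor needed for red cell and platelet lineages, was at least 77.4-fold lower, with levels of -4.74 in GFP-positive cells and 1.53 in GFP-negative cells. Ikzf1, the Ikaros factor of blood cells, was 16.7-fold lower, and its other probes lay on the same side.

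Tal1, which starts blood formation from mesoderm, stood at 1.51 in GFP-positive cells and 3.66 in GFP-negative cells, a difference of -2.15. Its partner Lmo2 was at 3.59 and 4.24, a difference of -0.65 that is within 2-fold, and the related Lyl1 differed by -2.33. Myb and Zfpm1 (the Gata1 cofactor Fog1) differed by -2.19 and -1.50. Sox6 and Bcl11a, which silence embryonic globins in later red cells, differed by 0.88 and, as a bound, 0.39. Cbfa2t3 differed by -0.71 on the probe read and by -2.99 on another.

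**Figure D2:**
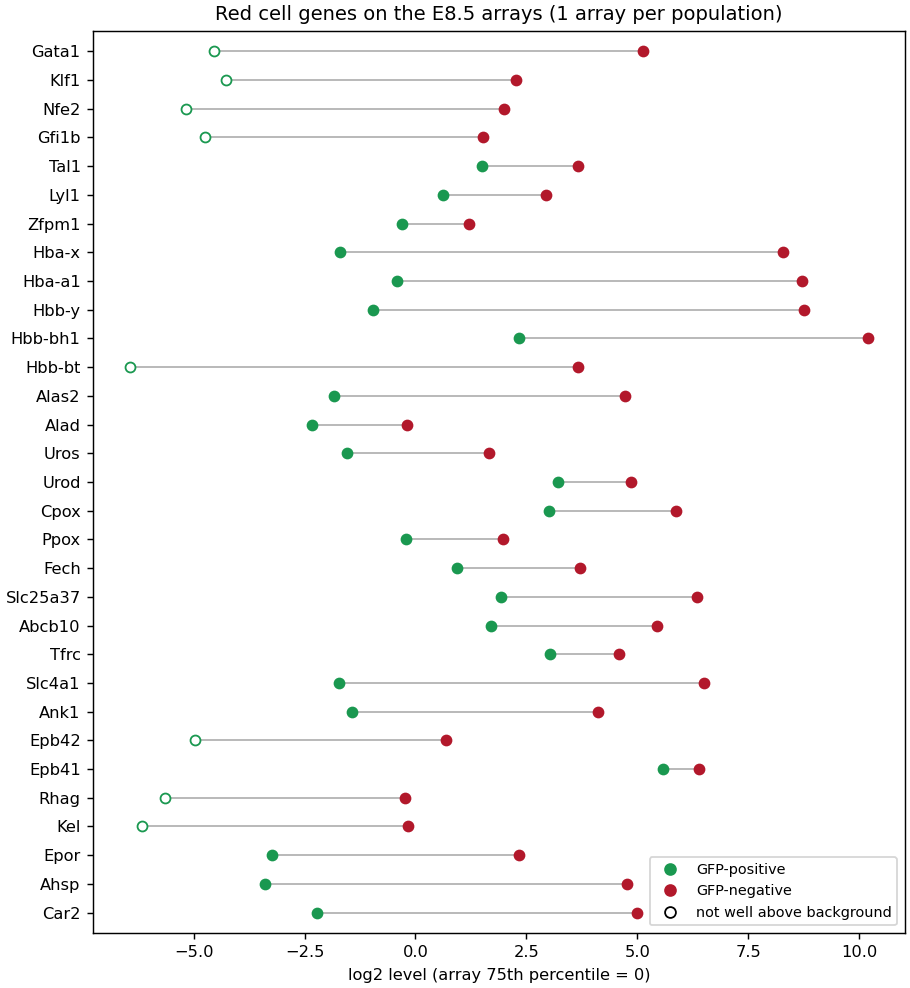
Log2 level of 31 red cell genes in GFP-positive (green) and GFP-negative (red) cells of E8.5, 1 array each, ordered as factors, globins, haem enzymes and iron carriers, membrane genes and others. Open points were not well above background. Every gene drawn is lower in GFP-positive cells, from Epb41 with a difference of -0.81 to Hba-x with -10.00. The genes drawn were picked, so that they are all on 1 side is no result. Red cell list members that were higher in GFP-positive cells, up to Sox6 with 0.88, are not drawn.

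All 7 globins with a probe were at least 2-fold lower in GFP-positive cells, with a median of -8.77. Hba-x, the embryonic zeta-like alpha chain, had a signal of 78.1 in GFP-positive cells and 72509 in GFP-negative cells, which is 1022-fold lower. Hbb-y, the embryonic epsilon-like chain, was 840-fold lower, with levels of -0.96 and 8.76. Hbb-bh1, the beta-like chain of the first primitive red cells, was 234-fold lower, with levels of 2.32 in GFP-positive cells and 10.20 in GFP-negative cells. The alpha chains Hba-a1 and Hba-a2, made by embryonic and adult red cells alike, were 552-fold and 428-fold lower. Hbb-bt and Hbb-b2, chains of the adult beta group, were not above background in GFP-positive cells and were at least 436-fold and 35.5-fold lower. These genes are near-identical copies in part, so a probe for 1 chain may also capture RNA of another.

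Enzymes and carriers of haem synthesis were lower in GFP-positive cells. Of 18 haem and iron genes 14 were at least 2-fold lower and 0 higher, with a median of -2.43. The differences were -6.55 for Alas2, the rate-limiting erythroid enzyme, -2.15 for Alad, -3.19 for Uros, -1.64 for Urod, -2.86 for Cpox, -2.20 for Ppox and -2.76 for Fech, which inserts the iron. These 7 enzymes were past 2-fold, and Alas2 was the furthest of them. Alas2 alone is specific to red cells, while the others work in every cell, and their levels in GFP-positive cells stayed well above background, from -2.34 for Alad to 3.21 for Urod. The carriers Slc25a37, the mitochondrial iron importer of red cells, and Abcb10, which stabilises it, differed by -4.41 and -3.74. Tmem14c, a porphyrin transporter, differed by -2.99 and the transferrin receptor Tfrc by -1.55. Blvrb, a biliverdin reductase abundant in red cells, differed by -6.58, with levels of -2.62 and 3.96. By contrast the glycine carrier Slc25a38, the ferrireductase Steap3, the iron transporter Slc11a2 and the haem-degrading enzyme Hmox1 were within 2-fold, at -0.11, -0.33, -0.44 and 0.58.

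Red cell membrane and skeleton genes had 14 of 18 members at least 2-fold lower, 0 higher, and a median of -4.90. The anion exchanger Slc4a1 (band 3) was 298-fold lower, with levels of -1.71 in GFP-positive cells and 6.50 in GFP-negative cells. The beta spectrin Sptb was low on both arrays, at -3.14 in GFP-positive cells and, not above background, -3.95 in GFP-negative cells. The ankyrin Ank1 was 47.3-fold lower, and the adducin Add2 at least 96.0-fold lower. The blood group genes Rhag, Rhd and Kel were not above background in GFP-positive cells, with bounds of 29.3, 61.1 and 30.5-fold. Epor, the erythropoietin receptor, was 47.5-fold lower, with levels of -3.22 and 2.34. Epb41 and Slc2a1, a skeleton protein and a glucose transporter that many cells make, differed by -0.81 and -0.82. Ermap was within 2-fold on the probe with the highest level (-0.32), while its other 2 probes differed by -7.27 and by -3.71, the second of these being at background in GFP-positive cells.

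Among other red cell genes, 12 of 15 were at least 2-fold lower. Ahsp, the chaperone of free alpha globin, was 286-fold lower, with levels of -3.38 in GFP-positive cells and 4.77 in GFP-negative cells. The carbonic anhydrase Car2 was 148-fold lower and Car1 4.01-fold. Tspan33 and Trim10 were 73.0-fold and 42.4-fold lower, and Nxpe2 at least 71.9-fold. Prdx2, Bpgm and Pklr, enzymes of oxidant defence and of red cell glycolysis, differed by -1.60, -1.62 and -1.61. Hemgn, a nuclear protein of blood precursors, stood at 8.96 and 9.05, but its only probe was bright and flat on all 7 arrays, as described further on.

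RefSeq start regions of these genes (GRCm38.p6, 250 bases before to 50 after the start) were searched on both strands. The first Gata motif was AGATAA. A second Gata motif, read as the same kind of match, was TGATAA. The Klf motif was CACACCC on either strand, and its first pair of letters can be shared with a match of the other kind. Of 48 red cell genes at least 4-fold lower, 32 had a start region, and 16 of these (50%) held a Gata match, against 18.95% of all 27025 start regions. A Klf match was in 5 of the 32 (15.6%), against 7.85% of all. Of 16 lateral plate genes that were at least 2-fold higher, 8 had a start region, with a Gata match in 2 (25%) and a Klf match in 0. Which letters lie in a window says nothing of whether a factor binds there in these cells. The start regions of 2 embryonic globins, the first haem enzyme, the erythropoietin receptor and Klf1 itself are shown as examples. They run 5′ to 3′ on the gene's strand, with Gata and Klf matches in capitals. All of them hold a Gata match, as did 16 of the 32, so they do not stand for the rest. Start regions without a Gata match, such as those of Gata1, Hbb-bt and Alad, are not shown.
Hba-x, chr11:32276350-32276649, plus: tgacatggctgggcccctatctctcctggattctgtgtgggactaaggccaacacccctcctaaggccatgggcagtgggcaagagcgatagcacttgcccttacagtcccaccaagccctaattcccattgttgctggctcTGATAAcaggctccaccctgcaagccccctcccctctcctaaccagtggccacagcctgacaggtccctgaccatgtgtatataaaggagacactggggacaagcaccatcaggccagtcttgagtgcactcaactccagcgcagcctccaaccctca
Hbb-y, chr7:103853158-103853457, minus: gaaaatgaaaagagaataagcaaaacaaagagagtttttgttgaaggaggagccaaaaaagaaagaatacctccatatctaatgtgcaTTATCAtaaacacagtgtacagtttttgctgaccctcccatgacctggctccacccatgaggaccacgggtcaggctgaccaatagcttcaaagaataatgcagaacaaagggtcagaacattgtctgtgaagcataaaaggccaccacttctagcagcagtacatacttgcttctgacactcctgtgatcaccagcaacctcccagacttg
Alas2, chrX:150547167-150547466, plus: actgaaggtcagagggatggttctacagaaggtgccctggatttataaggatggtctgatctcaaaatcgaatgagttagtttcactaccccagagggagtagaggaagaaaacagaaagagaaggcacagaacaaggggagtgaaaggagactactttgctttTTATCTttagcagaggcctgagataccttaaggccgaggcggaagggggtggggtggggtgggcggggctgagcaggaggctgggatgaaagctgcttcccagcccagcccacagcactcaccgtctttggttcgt
Epor, chr9:21963527-21963826, minus: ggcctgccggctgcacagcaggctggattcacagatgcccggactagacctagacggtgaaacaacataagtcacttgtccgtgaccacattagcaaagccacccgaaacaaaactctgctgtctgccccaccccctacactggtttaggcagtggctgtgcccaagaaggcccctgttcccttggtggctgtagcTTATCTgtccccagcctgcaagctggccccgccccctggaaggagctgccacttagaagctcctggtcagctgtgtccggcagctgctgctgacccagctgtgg
Klf1, chr8:84901732-84902031, plus: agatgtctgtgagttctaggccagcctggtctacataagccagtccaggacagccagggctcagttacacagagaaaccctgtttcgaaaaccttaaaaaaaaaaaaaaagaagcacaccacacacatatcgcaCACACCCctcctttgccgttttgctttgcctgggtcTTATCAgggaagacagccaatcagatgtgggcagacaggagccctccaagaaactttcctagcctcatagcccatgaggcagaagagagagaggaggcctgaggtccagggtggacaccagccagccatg
Counted from the start of the gene, the first base of the Gata match was at -108 for Hba-x, -162 for Hbb-y, -86 for Alas2, -54 for Epor and -80 for Klf1. The Klf match of Klf1 began at -116. Matches printed as TTATCT are the first Gata motif on the opposite strand. Those printed as TTATCA are the second on that strand.

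Of 8 megakaryocyte genes with a difference, 5 were at least 2-fold lower in GFP-positive cells, with a median of -1.16. Itgb3, the beta chain of the platelet fibrinogen receptor, differed by -3.03 (0.52 in GFP-positive and 3.56 in GFP-negative cells), and its other probe by -6.77. Pf4, a platelet chemokine, was at least 4.20-fold lower. Of 6 macrophage genes none was past 2-fold, with Csf1r at 3.95 in GFP-positive and 3.82 in GFP-negative cells. The other Csf1r probes were lower in GFP-positive cells, by differences of -1.89 and -0.73. The receptor Cx3cr1 was not above background on either array, and the factor Spi1 was low in GFP-positive cells (-3.62) with no fold against the GFP-negative floor.

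The factors at the branch of blood and vessel split between the populations. Etv2, the ETS factor that starts both fates in mesoderm, was 13.6-fold higher in GFP-positive cells, at 1.87 against -1.90 in GFP-negative cells. Fli1, an ETS factor downstream of it, was 2.25-fold higher. Runx1, needed for definitive blood, was not above background in GFP-positive cells and was at least 5.16-fold lower. Kdr, the receptor that marks the common precursor, was within 2-fold at 2.44 and 1.78.

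Endothelial genes leaned to the GFP-positive side in part. Of 18 with a difference, 8 were at least 2-fold higher and 0 lower, with a median of 0.50. The endothelial Sox factors were among them: Sox7 at 1.70 in GFP-positive and -0.49 in GFP-negative cells, Sox17 at 0.25 and -1.91, and Sox18 as a bound of 4.61-fold. The VEGF receptors Flt1 and Flt4 were 4.38-fold and 3.43-fold higher. The junction and surface genes Cdh5, Pecam1, Tek, Eng and Emcn were within 2-fold, between -0.50 and -0.17. A second Kdr probe differed by 2.16, against 0.66 on the brighter one.

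Lateral plate genes lay on the GFP-positive side. All 18 had a difference, and 16 were at least 2-fold higher in GFP-positive cells, where 7.82% of all genes were higher. The median was 1.72, and it lay between 1.44 and 2.30 under the 11 other settings tried. Prrx1, a homeobox factor of limb and body wall mesenchyme, was 9.31-fold higher, at 1.37 against -1.85 in GFP-negative cells. Gata6 and Hand2, factors of the heart-forming and posterior lateral plate, were 7.30-fold and 6.81-fold higher. Foxf1, the marker of the splanchnic layer, was at least 6.74-fold higher. Tbx3 and Pitx1, factors of the limb field, were 4.71-fold and 4.41-fold higher. Gata4 was 3.995-fold higher, at 1.32 against -0.68.

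The remaining lateral plate genes differed less. Msx2, a target of BMP, was bright on both arrays, at 7.35 and 5.51, and 3.57-fold higher. Bmp4, Tbx4 and Foxf2 were higher by 1.67, 1.44 and 1.43 log2 units. Msx1, Prrx2, Hand1 and Tbx5 were just past 2-fold, with differences from 1.02 to 1.08. Barx1 was low in GFP-positive cells (-3.41) and at background in GFP-negative cells. Gata5 stood at 8.08 and 8.20, again on a single flat probe.

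Heart factors were at least 2-fold higher in GFP-positive cells for 8 of 14 members and lower for 0, with a median of 1.01. Isl1 is a factor of the second heart field and of posterior lateral plate. On the higher side it had the second largest difference among genes measured on both arrays. It was 13.3-fold higher, with 0.65 in GFP-positive cells and -3.08 in GFP-negative cells. Fgf10, a ligand of the second heart field and limb field, was 8.05-fold higher. Nkx2-5 was not above background in GFP-negative cells and only just above it in GFP-positive cells. Of 11 sarcomere genes with a difference, 6 were at least 2-fold higher and 1 lower. The alpha myosin heavy chain Myh6 was 8.96-fold higher (1.96 and -1.20), the cardiac troponin Tnnt2 5.74-fold (0.50 and -2.02), the atrial light chain Myl4 5.32-fold (2.32 and -0.09) and the cardiac actin Actc1 4.47-fold (1.91 and -0.25). Myl7, an early heart light chain, was at least 3.50-fold higher, while Myl3 was 2.85-fold lower and the titin gene Ttn had no fold, being low in GFP-positive cells (-3.89) and at background in GFP-negative cells. The second probe of Myh6 was low on both arrays, at -2.93 in GFP-positive cells and, at background, -3.42 in GFP-negative cells.

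Intermediate mesoderm genes beyond Osr1 were mixed. Of 10 with a difference, 4 were at least 2-fold higher in GFP-positive cells and 0 lower. Wt1, a regulator of kidney and gonad precursors, was 3.91-fold higher, at -0.41 against -2.38 in GFP-negative cells. Gata3, which acts in the nephric duct, was 3.80-fold higher. Sall1 was 2.03-fold higher. Pax2 was within 2-fold at -1.07 and -0.46, and its other 2 probes differed by 0.94 and 0.64 in the opposite direction. Lhx1 was within 2-fold on its brighter probe, at 0.47 and 0.61, but its other probe read -0.07 in GFP-positive cells and -4.34, at background, in GFP-negative cells. Pax8 was low in GFP-positive cells (-3.95) and at background in GFP-negative cells, with no fold.

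Of 15 genes of the later metanephric mesenchyme, 13 were above background in GFP-positive cells and 10 in GFP-negative cells. Of all 27113 genes, 19760 and 16341 were, so more genes of any kind were detected on the GFP-positive array. The 13 and 10 are therefore no result about this list. Six2 was not above background in GFP-negative cells and gave no fold, and Gdnf and Fgf20 were not above background on either array. Cited1, which caps the nephron progenitors later, was bright, at 7.62 in GFP-positive and 5.98 in GFP-negative cells, 3.12-fold higher. Fgf9 was 4.67-fold higher, with levels of -0.29 and -2.52. Of the 12 members of this list with a difference, 7 were at least 2-fold higher and 0 lower.

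**Figure D3:**
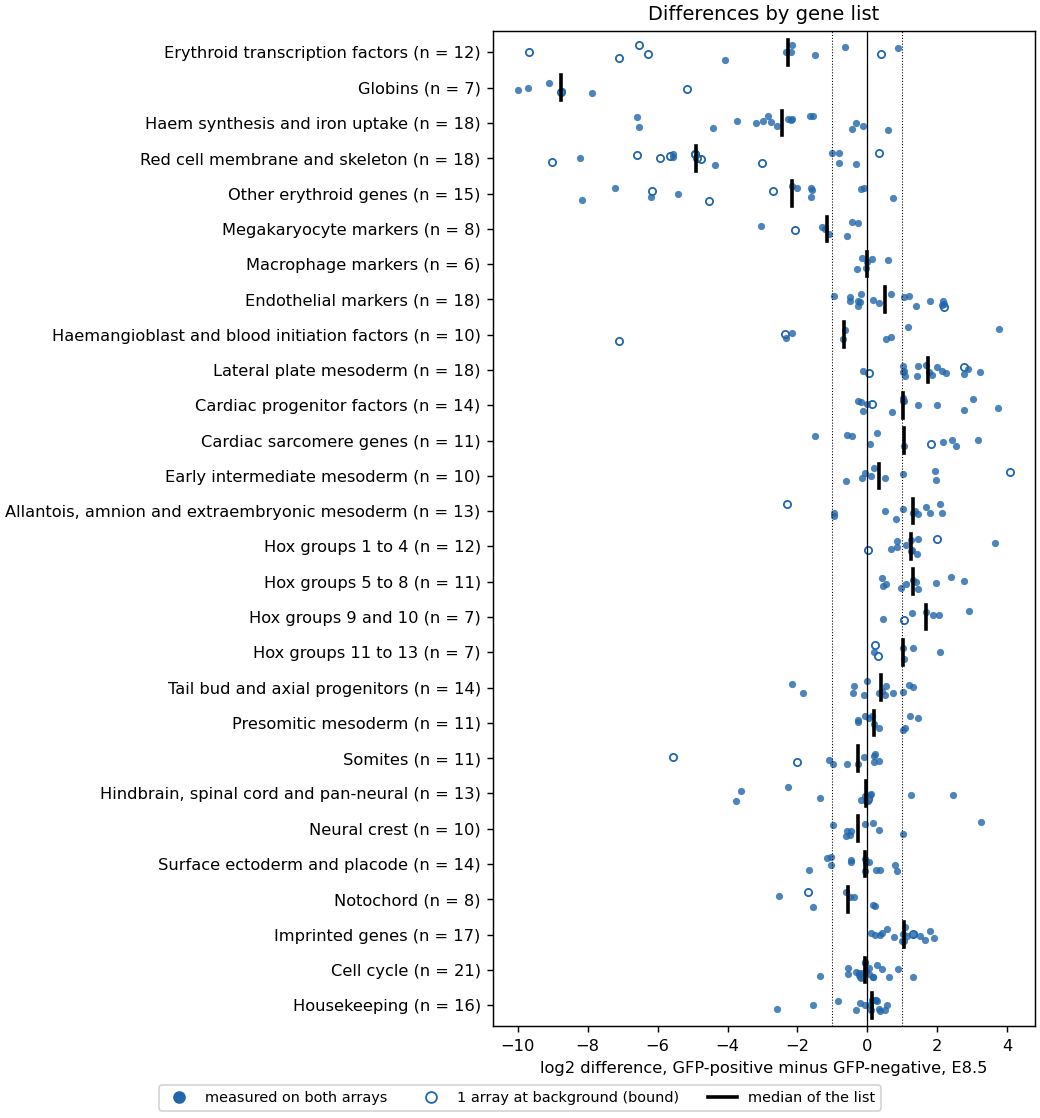
Log2 difference, GFP-positive minus GFP-negative, of every gene with a difference in 28 gene lists at E8.5. Filled points were above background on both arrays, open points are bounds, the thick bar is the list median, and dotted lines mark 2-fold. Red cell lists reach to -10.00, while lateral plate, allantois and Hox lists have medians above 1.

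Hox genes, which encode position along the body axis in the order of their clusters, were higher in GFP-positive cells across all 4 clusters. Of 37 with a difference, 25 were at least 2-fold higher and 0 lower, where 7.82% of all genes were higher and 6.77% lower. The median was 1.26, with a range from 0.02 to 3.66. The 3 largest values were those of Hoxd genes. Hoxd1 was 12.6-fold higher, at 2.47 in GFP-positive and -1.19 in GFP-negative cells, Hoxd9 7.46-fold (4.36 and 1.46), Hoxd8 6.86-fold (1.74 and -1.04) and Hoxd13 4.19-fold (-0.17 and -2.24). In the Hoxa cluster Hoxa5 was 5.30-fold higher, and in the Hoxc cluster Hoxc10 4.12-fold.

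Paralog groups 1 to 4 had a median of 1.25 with 8 of 12 genes at least 2-fold higher, groups 5 to 8 a median of 1.30 with 7 of 11, groups 9 and 10 a median of 1.68 with 6 of 7, and groups 11 to 13 a median of 1.01 with 4 of 7. The Hoxb genes had 7 of 9 at least 2-fold higher and none above 1.68. Hoxc genes had 3 of 8 past 2-fold. Hoxb1, Hoxc11 and Hoxc12 were at background in GFP-negative cells with bounds under 2-fold, and Hoxb13 and Hoxc13 were at background on both arrays. Hoxd11 was 2.06-fold higher on its brighter probe, while its other probe was at background in GFP-positive cells and 3.33 log2 units lower there. Among the TALE homeobox cofactors, which bind DNA with Hox proteins, Meis1, Pbx3 and Meis2 were 3.93-fold, 3.03-fold and 2.62-fold higher and the other 6 were within 2-fold.

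Of 25 genes of the BMP and TGF-beta pathway 15 were at least 2-fold higher in GFP-positive cells and 1 lower. The ligands Bmp4, Bmp7, Bmp5 and Bmp2 were higher by 1.67, 1.54, 1.47 and 1.07 log2 units, and Tgfb2 by 2.20. The receptor Bmpr1b was at least 7.87-fold higher. The BMP-responsive genes Id1, Id2 and Id3 were higher by 1.40, 1.63 and 1.52. The BMP antagonist Grem1 was 5.94-fold higher, while the activin inhibitor Fst was 2.21-fold lower and the antagonists Nog and Chrd were within 2-fold. The left-side genes Lefty2 and Nodal were 3.37-fold and 2.86-fold higher.

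Wnt pathway genes had 15 of 27 members at least 2-fold higher in GFP-positive cells and 2 lower. Lef1, a transcription factor of the pathway, was 10.5-fold higher (0.11 and -3.28), and the secreted agonist Rspo1 at least 11.3-fold higher. The feedback targets Axin2 and Nkd1 and the secreted inhibitors Sfrp1, Sfrp5, Dkk1 and Sfrp2 were higher by 1.05 to 1.70 log2 units. A second Axin2 probe, lower in level, differed by -0.44. Wnt8a was at least 5.15-fold lower, and the R-spondin receptor Lgr4 2.54-fold lower.

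Retinoic acid genes had 5 of 14 members at least 2-fold higher and 0 lower. The receptors Rara and Rarb were 5.17-fold and 2.40-fold higher, the binding protein Crabp1 3.46-fold, and the retinol dehydrogenase Rdh10 2.24-fold. The degrading enzyme Cyp26b1 was at least 4.30-fold higher. Aldh1a2, the synthetic enzyme of trunk mesoderm, was within 2-fold at 3.56 and 3.35, as was Cyp26a1 at 0.18 and -0.25.

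The FGF, Hedgehog and Notch lists were closer to the background. FGF genes had 6 of 21 at least 2-fold higher (Fgf10, Fgf9, Dusp4, Spred1, Etv5 and Dusp6) and 2 lower, Fgf4 by -1.85 and Fgf15 by -1.24. In the Hedgehog list Shh, the ligand of notochord and floor plate, was 5.71-fold lower, at -2.49 in GFP-positive and 0.03 in GFP-negative cells. Its response gene Gli1 was within 2-fold, and Gli3 was 3.59-fold higher. Notch genes had 4 of 15 at least 2-fold higher, Jag1, Hey1, Hes1 and Nrarp, with differences from 1.03 to 1.40, and 0 lower.

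Tail bud and presomitic genes mark the growing end of the axis. The tail bud list had 3 of 14 higher and 2 lower, where 7.82% and 6.77% of all genes were, with a median of 0.38. T (Brachyury) was at -1.30 in GFP-positive cells and -0.92 in GFP-negative cells, Wnt3a at -1.63 and -1.22, and Fgf8 at 0.69 and 0.70. The caudal factors Cdx4, Evx1 and Cdx1 were higher by 1.19, 1.31 and 1.02, whereas Sp8 was 4.49-fold lower. Nkx1-2 differed by 0.54 on its brightest probe and by -0.65 and -3.14 on its other probes. In the presomitic list 4 of 11 were higher (Dkk1, Rspo3, Msgn1 and Nrarp) and 0 lower, and the segmentation genes Hes7, Lfng, Dll1, Dll3 and Mesp2 lay between -0.27 and 0.20.

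Of 11 somite genes with a difference, 3 were at least 2-fold lower in GFP-positive cells and 0 higher. Pax1, the factor of the sclerotome, was not above background in GFP-positive cells (-5.16) and stood at 0.45 in GFP-negative cells, at least 46.8-fold lower. Pax9, its close relative, was at least 4.01-fold lower. Tcf15, of early epithelial somites, was 2.14-fold lower, and Meox1, Foxc2, Uncx and Tbx18 were within 2-fold.

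Neural genes, on the probe read for each, were lower in GFP-positive cells only for some members. Sox2, the factor of neural and pluripotent cells, was 13.6-fold lower, at -3.84 against -0.07 in GFP-negative cells, and Sox3 was 12.1-fold lower, at -1.38 against 2.22. Zic2 was 4.78-fold lower and Olig3 2.57-fold. Irx3 and Gbx2, by contrast, were 5.496-fold and 2.38-fold higher. Zic1 was within 2-fold on its brighter probe, with a difference of 0.10. The other Zic1 probe read -6.50, at background, in GFP-positive cells and -1.09 in GFP-negative cells. Of 14 anterior neural genes 5 were at background on both arrays and 8 had a difference, and of these Hesx1 alone was past 2-fold, 5.76-fold lower. The list median for hindbrain and pan-neural genes was -0.03. Of the neural crest genes Ngfr was 9.46-fold higher in GFP-positive cells (3.92 and 0.68) and Snai2 2.05-fold, while Sox10, Tfap2b and Sox9 were within 2-fold.

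In the surface ectoderm list 4 of 14 were at least 2-fold lower (Tfap2c, Esrp1, Krt19 and Grhl3, from -1.66 to -1.03) and 0 higher, and Epcam was at -0.67 and -0.60. Among notochord and endoderm genes Foxa2, shared by both, was 2.93-fold lower, and Trh at least 6.45-fold lower. Hhex and Sox17, which endothelium also expresses, were 3.78-fold and 4.46-fold higher. The yolk sac list had 4 of 15 lower and 0 higher, led by Afp at -1.62 and Fgg at -1.61, with Ttr, Apoa1 and Apob within 2-fold. Alb, the later liver product, was at background on both arrays.

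Extraembryonic mesoderm genes leaned to the GFP-positive side, with 8 of 13 at least 2-fold higher, 1 lower and a median of 1.30, but 6 of the 14 listed genes also stand in the lateral plate or Hox lists. Of the germ cell and pluripotency genes 3 were lower, Dppa3 (Stella) 14.9-fold, at -3.79 against 0.10 in GFP-negative cells, Sox2 as above, and Tfap2c 3.16-fold. Pou5f1, Nanos3, Prdm1 and Kit were within 2-fold.

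Imprinted genes, many of them regulators of fetal growth, were at least 2-fold higher in GFP-positive cells for 10 of 17 members and lower for 0, with a median of 1.03. Peg3 and Igf2 were 3.77-fold and 3.47-fold higher, Meg3 and Mirg of the Dlk1 cluster 3.11-fold and 2.83-fold, and Mest 2.53-fold. H19, the bright noncoding partner of Igf2, was 1.71-fold higher, at 8.83 and 8.05. Cdkn1c, Grb10, Ndn and Sgce were within 2-fold.

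Matrix and adhesion genes were mixed. Has2, the hyaluronan synthase of early mesenchyme, was 3.21-fold higher in GFP-positive cells, and the hyaluronan link protein Hapln1 and the fibrillin Fbn1 were 2.95-fold and 2.72-fold higher. The proteoglycan Lum was 10.1-fold lower (-2.73 and 0.62) and Postn at least 4.90-fold lower. Type I collagen did not differ beyond 2-fold (Col1a1 at 1.72 and 1.75). Cdh2, the N-cadherin of mesoderm and neural tissue, was 2.13-fold higher. The integrin Itga4 was 4.02-fold lower.

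Head and limb mesenchyme factors were led by Alx1, a head mesenchyme factor at least 15.3-fold higher in GFP-positive cells (0.47 and -4.22), with Twist1 3.67-fold and Pdgfra 2.61-fold higher and Meox2 3.06-fold lower.

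Genes that serve all cells were close on both arrays. Of 21 cell cycle genes 19 were within 2-fold, the exceptions being the D cyclins Ccnd1, 2.48-fold higher, and Ccnd3, 2.58-fold lower. Of 18 glycolysis and hypoxia genes 17 were within 2-fold, with Ldha at 8.68 and 8.63. Of 16 housekeeping genes 14 were within 2-fold, and the other 2, with Tfrc among them, belong to the haem and iron list as well. Stress-responsive immediate early genes went both ways: Egr1, Dusp1 and Fos were 6.71-fold, 2.79-fold and 2.14-fold lower in GFP-positive cells, and Nr4a1 and Atf3 were 3.95-fold and at least 2.77-fold higher. The part of the sort in these values was not tested.

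Some of the most different genes stand in none of the lists. On the higher side these were Cldn11, a tight junction gene (10.1-fold, 4.22 in GFP-positive and 0.89 in GFP-negative cells), Gm10776 (8.49-fold), Radx, a replication fork protein (7.68-fold), Ccnjl (7.67-fold) and the Wnt inhibitor Cxxc4 (7.16-fold). On the lower side they were Lmx1a, a LIM homeobox factor of roof plate and midbrain (206-fold, -2.81 and 4.87), Acp5, the tartrate-resistant acid phosphatase (180-fold, -2.97 and 4.52), and Uba7, the activating enzyme of the ubiquitin-like protein Isg15 (74.99-fold, -2.29 and 3.94). Each of these values comes from a single array on each side.

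At E9.5 the same contrast shares no array with E8.5, but the stage, the dissection (caudal part instead of whole embryo) and the removal of the gated cells differ with it and cannot be told apart, and the E9.5 GFP-negative array lay on the other slide. There 189 genes (0.797% of 23705) were at least 4-fold higher in other GFP-positive than in GFP-negative cells and 300 genes (1.27%) lower. Of the genes at least 4-fold higher at E8.5 and measured at both stages, 58 of 176 (33.0%) were at least 2-fold higher at E9.5. At least 2-fold lower were 12 (6.82%). Of all 23705 genes with a difference at E9.5, 8.58% were higher and 5.18% lower. The shares over only the genes measured at both stages are not given here. Of the genes at least 4-fold lower at E8.5 and measured at both stages, 168 of 432 (38.9%) were at least 2-fold lower at E9.5. At least 2-fold higher were 31 (7.18%).

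At E9.5, 39 of 68 red cell genes were at least 2-fold lower and 2 higher, with a median of -1.60. Myb differed by -2.19 at E8.5 and by 0.77 at E9.5, and Abcb6 by -2.28 and 0.03. All 7 globins were lower, with Hba-x at a difference of -10.00 at E8.5 and -7.66 at E9.5. Of the haem enzymes named at E8.5, Alas2 (-4.70), Fech (-1.80), Cpox (-1.64) and Uros (-1.01) were past 2-fold at E9.5 as well, while Alad, Urod and Ppox were between -0.75 and 0.11. The genes past 2-fold on the higher side were Aqp1 and Sox6.

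Lateral plate genes were higher at both stages, with 15 of 18 at least 2-fold higher at E9.5 and 1, Gata4, at least 2-fold lower. Tbx4, a hindlimb and allantois factor, had a difference of 1.44 at E8.5 and 5.67 at E9.5, and Pitx1 2.14 and 4.89. Osr1 itself was at 4.08 and 4.30, both bounds. Sarcomere genes had 6 of 11 at least 2-fold higher at E8.5 and 2 of 14 at E9.5, where Myh6 had a difference of -0.34.

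Hox genes had 25 of 37 at least 2-fold higher at E8.5. At E9.5 there were 5 higher and 5 lower of 37, where 8.58% and 5.18% of all genes were, and the median was -0.31. The 5 higher at E9.5 were Hoxd13 at 1.85, Hoxd9 at 1.74, Hoxa13 at 1.63, Hoxd11 at 1.14 and Hoxd8 at 1.03. The 5 lower were Hoxc12 at -1.56, Hoxd4 at -1.19, Hoxc13 at -1.13 as a bound, Hoxa4 at -1.08 and Hoxb9 at -1.04. Tail bud genes had 2 of 14 lower at E8.5 and 8 of 14 at E9.5, and presomitic genes 0 of 11 and 8 of 11. T differed by -0.38 at E8.5 and by -3.56 as a bound at E9.5, Lfng by -0.08 and -4.12, and Cyp26a1 by 0.43 and -3.42. Imprinted genes had 10 of 17 higher at E8.5 and 8 of 17 at E9.5.

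**Figure D4:**
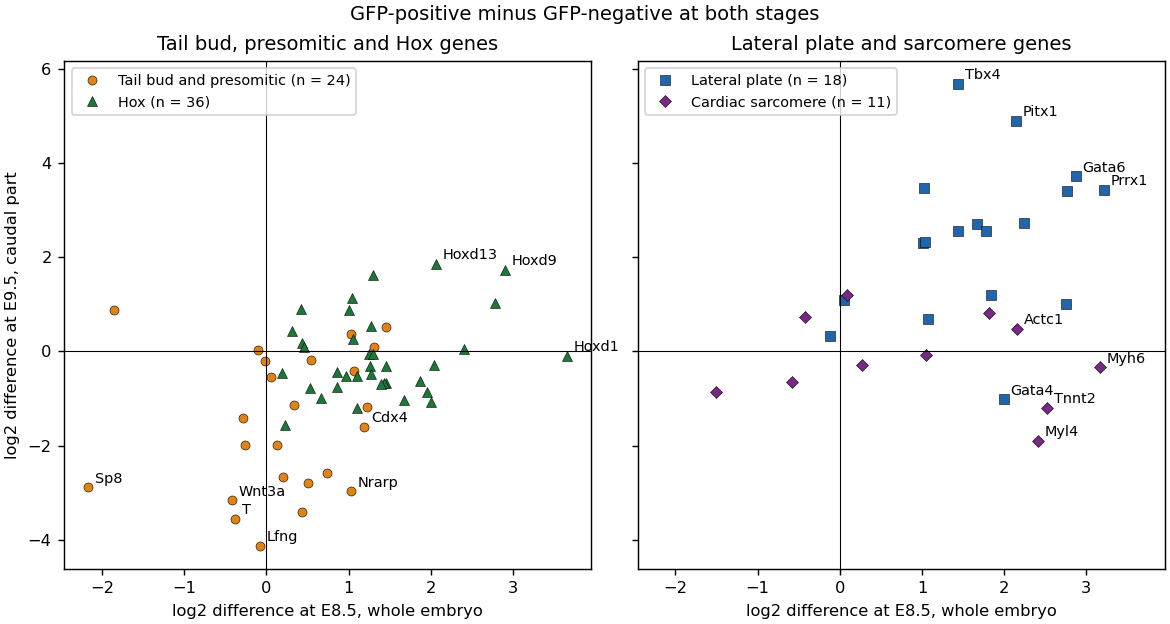
Log2 difference, GFP-positive minus GFP-negative, at E8.5 in the embryo (x axis) and at E9.5 in the caudal part without gated cells (y axis), 1 array per population, for list genes with a difference at both stages (24 tail bud and presomitic, 36 Hox, 18 lateral plate and 11 sarcomere genes). Tail bud and presomitic genes lie between -2.17 (Sp8) and 1.46 (Dkk1) at E8.5 and mostly below 0 at E9.5, Hox genes lie right of 0 at E8.5 and around 0 at E9.5, and lateral plate genes lie mostly in the upper right.

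The E8.5 levels were also set against the 5 later arrays of the series. Part of these come from E9.5. The rest come from E11.5, with sample titles that read MM, taken here as metanephric mesenchyme. The later median therefore mixes stages and tissues, and stage, tissue and sort differ together in this comparison. On the GFP-positive array 9 genes stood more than 6 log2 units from their later median, and on the GFP-negative array 36 did. All later arrays but the E9.5 GFP-negative one hold GFP-positive cells, so the later median is mostly a value of such cells. The E9.5 GFP-negative array alone read 2.65 for Sox2, 3.11 for Foxa2, 8.74 for Hbb-y and 0.13 for Wt1. It read -3.18 for Trap1a and -4.44 for Nrip3. On the GFP-positive array the high ones were Cdx4 (6.15, later median -2.03), Cdx2 (1.63 and -5.52), Tbx4 (3.23 and -3.71), Dll3 (1.55 and -5.10), Cfc1, a Nodal co-receptor (0.49 and -5.79) and Phlda2 (4.47 and -1.62). The low ones were Chl1, Dnm3os and Epha3, whose probes read here were at background. The other 2 Dnm3os probes were higher in GFP-positive cells, by 1.42 and 1.47. Cdx2, Cdx4 and Dll3 stood apart on the GFP-negative array as well, at 1.13, 4.96 and 1.42. The remaining genes of the GFP-negative array were largely red cell genes, with Foxa2 (2.86), Sox2 (-0.07), Afp (-0.03), Kcnj5 (3.39), Nrip3 (0.87), Slc30a10 (1.14) and Trap1a (1.27) among the others, and Wt1 was the only low one, at -2.38 against a later median of 4.99.

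Among them Aasdh stood apart on that array alone. This gene of the acyl-CoA synthetase family read 9.34 on the GFP-negative array, a signal of 149956, and -0.43 on the GFP-positive array, a signal of 189. On the 5 later arrays the same probe lay between -0.52 and 0.55. A second Aasdh probe read 1.08 in GFP-positive and 1.24 in GFP-negative cells and between 0.80 and 2.11 on the later arrays. On mm9 both lie on the minus strand of chromosome 5, the bright one at 77305028 to 77305087 and the other at 77304972 to 77305031. Each is a single spot, and the cause of the bright value was not tested. A 30-base stretch of each is shown, since these 2 probes of the same gene gave such different values.
Aasdh bright probe, bases 31 to 60: caggtgtagtccttgtaagtatgtcaatga
Aasdh second probe, bases 1 to 30: gtgagagggttggaaatgtcattgtaaagc

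Some genes of the lists could not be read because their probe gave the same bright value everywhere. On all 7 arrays, 12 list genes had a mean level over 5 with a range under 1, among them housekeeping genes such as Actb and Ppia but also Hemgn, Eya1, Smo, Nanog, Gata5, Trp63 and Fgfr1. The probes of Hemgn, Eya1 and Smo hold a run of at least 10 bases of alternating GT or CA. Of 189 probes on the array with a GT run, 138 (73.0%) were bright and flat in this sense, with a median level of 7.59. Of 101 with a CA run it was 39 (38.6%), and of 55392 with neither it was 1170 (2.11%). Part of each of the 3 list probes, bases 31 to 60, are shown with the alternating runs in capitals.
Hemgn probe, mm9 chromosome 4, minus: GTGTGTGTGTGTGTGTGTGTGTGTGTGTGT
Eya1 probe, mm9 chromosome 1, minus: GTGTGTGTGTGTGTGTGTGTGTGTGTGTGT
Smo probe, mm9 chromosome 6, plus: ACACACAtacactctCACACACACAgacag
The second Smo probe read 1.13 in GFP-positive and 0.29 in GFP-negative cells. Nanog, whose bright probe holds no such run, read -2.37 and -0.22 on its other probe, a difference of -2.15. The other Fgfr1 probes were 0.90 and 1.82 higher in GFP-positive cells, against -0.09 on the bright one. With all probes that hold a run left out, a choice made after the values were seen, the counts were 179 higher and 491 lower.

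**Figure D5:**
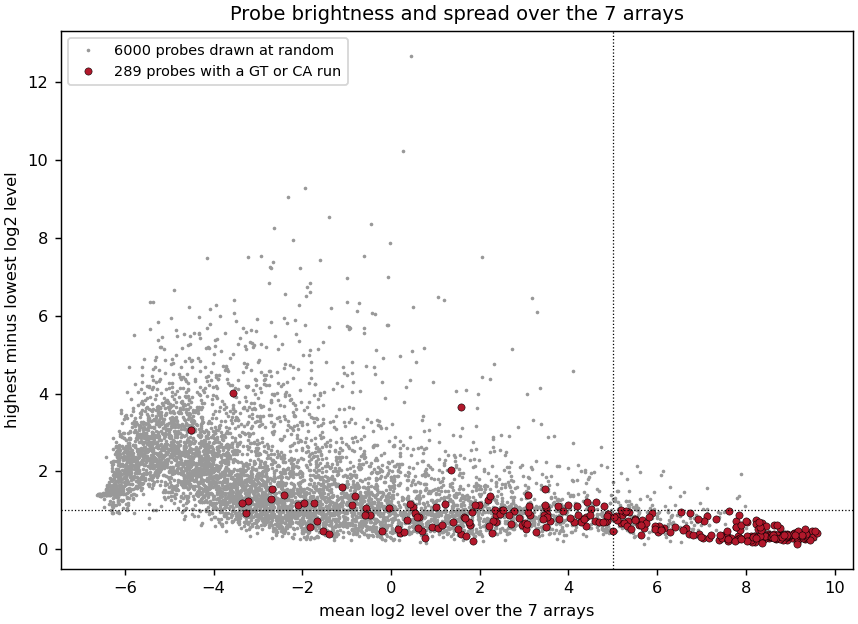
Mean log2 level of a probe over the 7 arrays (x axis) and its highest minus lowest level (y axis), for 6000 probes drawn at random (grey) and the probes with a run of at least 10 alternating GT or CA bases (red). Dotted lines mark the bounds of bright (above 5) and flat (under 1). Most red points lie in the lower right corner.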

How the data were processed

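The gene lists and their members were chosen with earlier results of these data known, while the arrays were chosen by their labels. Per the labels' protocols, 10 ng of total RNA from each population was amplified (WT-Ovation Pico) and labelled with Cy3. Scanner images became the deposited signal intensity through Agilent Feature Extraction (version 10.7.3.1 in the submitters' processing notes). Per the file headers this intensity is background-subtracted and detrended, and no step scales the arrays to each other. The series value table repeats it and left 0 columns of per-sample values unused. Control and flagged spots were dropped, and log2 levels were centred on each array's 75th percentile. Of 55681 probes, RefSeq accessions named 26425, the array file 8933, and 20323 had no name. Each of 27113 genes was read from whichever of its probes averaged highest across the series (6664 genes had several). For probes with several spots, above background means that a share of 0.5 or more of the spots were so marked. A further 2041 genes, whose bound reached past the bright side, got no fold. Arrays have no read depth, and 1 array per population sets the precision. Spots of 399 probes printed 10 times varied by an SD of 0.122 on the GFP-positive and 0.138 on the GFP-negative array, so a difference carries spot noise of 0.185, without variation between embryos. The text names, among genes past 4-fold and above background on both arrays, the 15 highest and 15 lowest, unless another probe opposed them by over 1 log2 unit (9 of 157 genes past 4-fold with several probes). From each of 47 lists (605 symbols, 598 on the array) it names the first gene, up to 4 leading members and those on the other side. It also names genes over 6 log2 units from their median on the 5 later arrays. Other genes, mostly list members within 2-fold and second probes, were chosen after their values were seen. The steps were tested on simulated data. Alternatives covered background correction, scaling, the filter on dim probes, the probe of a gene, the fold and flagged spots. Python 3.11.15, pandas 2.3.3, R 4.3.3 and limma 3.58.1 (normexp alone) were used. Some genes that these rules pick are not reported here.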

Additional observations from a re-analysis of the deposited data

Results flagged for a closer look

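Among 532 list genes with a difference at both stages, 13 were past 2-fold on opposite sides at E8.5 and at E9.5, GFP-positive minus GFP-negative. The same count over all 17936 genes measured at both stages is not given here, so 13 cannot be called many or few. The difference between the stages was not tested, since each population had 1 array, and stage, dissection and gate differ together. 11 genes were higher in GFP-positive cells at E8.5 and lower at E9.5. In heart and lateral plate, the log2 difference was 2.52 at E8.5 and -1.19 at E9.5 for Tnnt2, 2.41 at E8.5 and -1.90 at E9.5 for Myl4 and 2.0 at E8.5 and -1.02 at E9.5 for Gata4. In the Hox clusters it was 2.0 at E8.5 and -1.08 at E9.5 for Hoxa4, 1.68 at E8.5 and -1.04 at E9.5 for Hoxb9 and 1.11 at E8.5 and -1.19 at E9.5 for Hoxd4. For the caudal factor Cdx4 it was 1.19 at E8.5 and -1.61 at E9.5, and for the Notch feedback gene Nrarp 1.03 at E8.5 and -2.97 at E9.5. In the Wnt pathway it was 1.22 at E8.5 and -1.18 at E9.5 for Rspo3 and 1.19 at E8.5 and -1.41 at E9.5 for Sfrp2, and in the FGF pathway 1.58 at E8.5 and -1.12 at E9.5 for Dusp4. 2 genes went the other way, the trophectoderm and germ cell factor Tfap2c with -1.66 at E8.5 and 2.45 at E9.5 and the water channel Aqp1 with -1.01 at E8.5 and 1.55 at E9.5. The Aqp1 value at E9.5 and the Hoxa4 value at E8.5 are bounds.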

How the results depend on the processing

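No paired analysis was possible because each population had 1 array and the labels carry no replicate numbers. The counts of 179 genes at least 4-fold higher and 489 at least 4-fold lower in GFP-positive cells became 31 and 138 with normexp background correction, 607 and 284 with the median level of housekeeping genes set equal, 107 and 250 with genes above background on both arrays alone, and 1413 and 1222 at 2-fold. Without filter or bound 543 were higher. The cause was not tested, beyond fewer genes entering the third of these and a lower threshold in the fourth. The other settings kept both counts within 1.5 times. Higher genes were 68.1% of those past 4-fold with housekeeping median scaling, against 26.8% as reported, 18.3% with normexp, 35.7% without scaling and 44.8% without filter or bound. Of the list medians past 2-fold, 174 of 208 recomputed values were still past it and 208 of 208 kept their sign. Among those that fell within 2-fold with normexp were the metanephric (0.54), heart factor (0.61) and Wnt (0.73) lists. The BMP and TGF-beta list (0.79) and Hox groups 1 to 4 (0.88) did so too. Hox groups 11 to 13 fell to 0.32 under the mean over all probes, and sarcomere genes to 0.43 without filter or bound. Of named genes past 2-fold, 2306 of 2451 values were still past it and 2449 kept their sign. Under the mean over all probes the difference of Dnm3os turned to 0.0247 and the difference of Hoxd11 to -1.14. Medians of the somite, hindbrain and pan-neural, neural crest, gut endoderm, yolk sac, notochord, germ cell, surface ectoderm, macrophage and cell cycle lists were below 0 as reported and above 0 under housekeeping median scaling. Leaving out probes with an alternating run and setting the median difference of housekeeping genes to 0 were chosen after seeing the data. The floor of the GFP-negative array, -3.46, limits how far a gene high in GFP-positive cells can be followed, and 1 array per population leaves the spread between embryos unknown.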

Other observations

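Few trophoblast genes could be compared. Of 9 on the array 5 had a difference, and Hand1, shared with the lateral plate list, was the only one past 2-fold, 2.02-fold higher in GFP-positive cells. Gcm1 stood at 3.16 in GFP-positive and 3.15 in GFP-negative cells, and Plac1 at 1.21 and 0.39. The placental genes Tpbpa and Prl3d1 lay at -6.53 and -5.97 in GFP-positive cells and at -5.59 and -5.49 in GFP-negative cells, with no fold.

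Among adhesion genes, the integrin chains Itga8, Itga6 and Itga5 were higher in GFP-positive cells, Itga8 2.13-fold (-0.87 and -1.96), Itga6 2.81-fold (3.23 and 1.74) and Itga5 at least 2.03-fold. The second Itga6 probe differed by -0.19. Itga8, whose protein was used for the later gate, was above background on both arrays at E8.5.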
